A study of Mus musculus with 6 samples.

Results

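The genes described here encode chains of cytokine receptors carried by T lymphocytes. They are Il2rb, Il2rg, Il7r, Il4ra, Il21r, Il15ra and Il9r of the common gamma chain family, Il6ra and Il6st of the gp130 family, and Il10ra. They were taken by name, as all probe sets to which the platform annotation gives exactly 1 gene symbol and that symbol is one of these 10. Of the 10 genes 9 had such a probe set, among 18193 genes on the array, and together they had 20 of its 45101 probe sets. Il2rg, the gene of the common gamma chain itself, had no probe set named in the annotation used and was not analysed here. Il9r lay below the filter on dim probe sets, so 8 genes with 18 probe sets could be tested, among 12996 genes. Il10ra belongs to neither family, since the IL10 receptor is a class II cytokine receptor, and the name of the set covers it only loosely.

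The RNA came from mouse helper T lymphocytes, marked by CD4, isolated from spleen with peripheral and mesenteric lymph nodes and kept in culture. It was hybridised to 6 oligonucleotide arrays, 2 labelled RA, 2 labelled Ro and 2 labelled Control. RA stands for retinoic acid, the hormone-like product of vitamin A that the series is titled after. The labels do not expand Ro, and they give no strain, genotype, sex or age of the mice, no dose, and no number of animals or cultures behind an array. A culture mixture is listed for Control replicate 2 alone, and it includes IL2, IL6 and IL21, which are ligands of receptors described here, beside TGFb1, IL1b, IL23, TNFa and antibodies to IL4 and IFN-gamma. For the other 5 arrays the labels list no mixture.

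Cytokines of the common gamma chain family, IL2, IL4, IL7, IL9, IL15 and IL21, each bind a private chain or pair of chains that joins the common gamma chain. The assembled receptor activates the kinases JAK1 and JAK3 and then STAT transcription factors, and T cells depend on these signals for survival, growth and the choice of a helper state. IL6 binds the chain encoded by Il6ra, and that complex recruits gp130, the signalling chain encoded by Il6st and shared by a family of cytokines, which activates STAT3 above all. IL10 binds the chain encoded by Il10ra, which pairs with the product of Il10rb and also signals through STAT3.

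Values are probe set signals in arbitrary units, each array multiplied by 1 factor, from 0.840 to 1.44, that gives the tested probe sets the same median on all arrays. Left as deposited, the arrays differed in level, with a median log2 difference over tested probe sets of -0.21 (RA minus Ro), 0.09 (RA minus Control) and 0.29 (Ro minus Control). The T cell marker Cd3d was bright everywhere, at 6244 to 8722, and Cd4 was at 667 on Control replicate 2 and at 1116 to 1504 on the other 5 arrays. Control replicate 2 stood apart in other ways too: its log2 values correlated with those of the other arrays at 0.868 to 0.878, against 0.948 to 0.970 among the other 5. The Y-linked gene Eif2s3y was at 1.40 on it and at 680 to 925 on the others. Xist, the RNA that coats the inactive X chromosome of female cells, ran from 0.356 to 3.76 over RA and Ro, against 204 on Control replicate 1 and 1648 on Control replicate 2. Both Control arrays thus differed from all RA and Ro arrays in this sex-linked RNA, and in every comparison with Control that difference and the treatment cannot be told apart. Precision is limited throughout by having 2 arrays in a group, and nothing says that replicates came from separate cultures or animals.

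Il6ra, the IL6-binding chain, had the largest difference between RA and Ro of the 8 receptor genes tested. Its signal was 319 and 428 on the RA arrays, against 857 and 993 on the Ro arrays and 692 and 845 on the Control arrays. Both RA arrays lay below all 4 others, and both Ro arrays lay above both Control arrays. The deposited signals, before scaling, gave the same order of groups, at 296 and 438 in RA, 929 and 1182 in Ro, and 815 and 587 in Control. The mean was 374 ± 77.2 in RA, 925 ± 95.9 in Ro and 768 ± 108 in Control (SD, n = 2 each), a ratio of 0.404 for RA over Ro and 0.486 for RA over Control. Among all tested genes, 3.89% had both RA arrays below every Ro and Control array. In bulk RNA, fewer cells of a type and less RNA per cell cannot be told apart. Summed mast cell and basophil markers were also lower in RA, at 1261 to 1596, than in Ro, at 3054 to 5090. On Control replicates 1 and 2 these sums were 3098 and 221, where Il6ra read 692 and 845. That rise of Il6ra depends on the scaling and the probe set. As deposited it fell, from 815 to 587, and a second Il6ra probe set fell when scaled, from 250 to 166. The part of these markers' cells in the Il6ra values was not tested.

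In the limma fit of all 6 arrays the log2 difference of Il6ra was -1.31 for RA minus Ro (SE 0.30, 95% interval -2.03 to -0.59), with an unadjusted p of 0.00363 and an adjusted p of 1.00. For RA minus Control it was -1.04 (SE 0.30, interval -1.76 to -0.32), with a limma adjusted p of 0.904. For Ro minus Control it was 0.27, with an interval of -0.45 to 0.99. In limma on the 4 RA and Ro arrays alone the RA minus Ro difference was -1.30 (SE 0.24), with an adjusted p of 0.503, and so Il6ra passed the threshold in neither fit. In that fit it did pass without Ro replicate 1 (-1.39, limma adjusted p = 0.00312) or without Ro replicate 2 (-1.18, limma adjusted p = 0.0447), where the spread of the lone Ro array is taken from the RA arrays. It did not without RA replicate 1 or RA replicate 2 (-1.09 and -1.49). A second Il6ra probe set, when scaled, gave the same order for RA and the other groups, with 109 and 120 in RA, 235 and 229 in Ro, and 250 and 166 in Control. Its log2 differences were -0.99 for RA minus Ro and -0.81 for RA minus Control. As deposited it read 101 and 123 in RA, against 294 and 115 in Control, so that RA and Control overlapped.

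**Figure D1:**
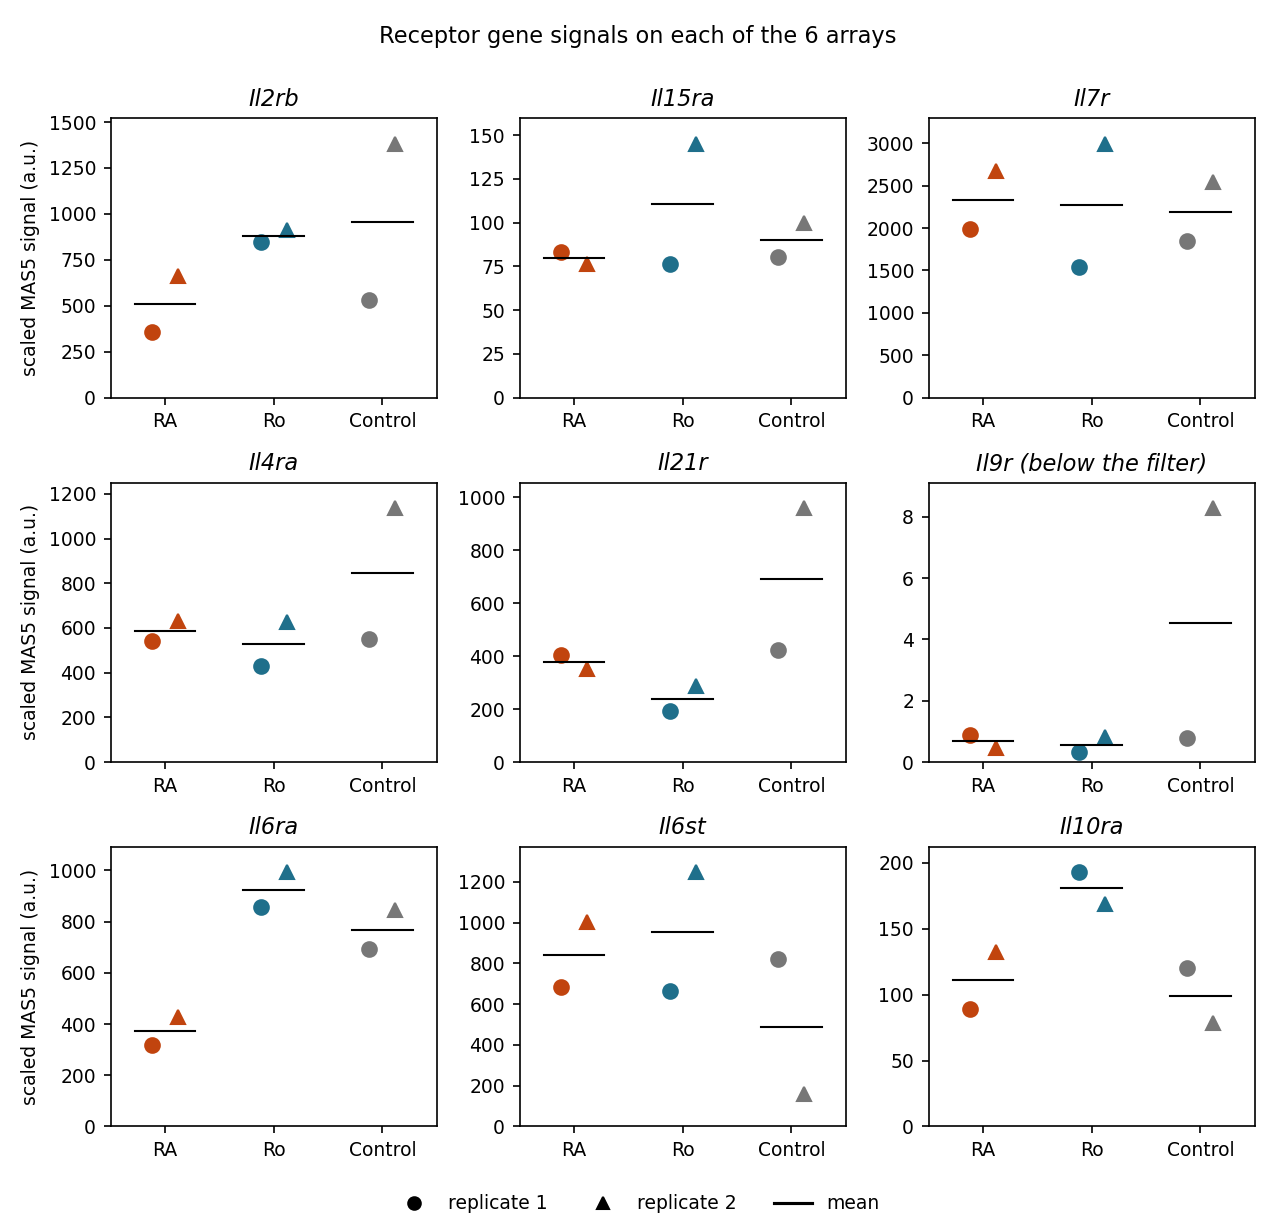
Scaled MAS5 signal in arbitrary units, on a linear axis from 0, of 9 receptor genes in the RA, Ro and Control groups, with circles for replicate 1, triangles for replicate 2 and bars for the mean of 2 arrays. Il6ra is lower on both RA arrays than on the other 4, Il21r is lowest on the Ro arrays, and Control replicate 2 departs from Control replicate 1 by 5.18-fold for Il6st.

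The start of Il6ra is shown because this gene had the largest difference, and that of Il21r because it lay in the opposite order between RA and Ro. Each window runs from 250 bases before to 50 bases after a gene start, 5′ to 3′ on the strand of the gene, from RefSeq on GRCm38.p6. Capitals mark a match to AGGTCA, the half-site bound by retinoic acid receptors and other nuclear receptors, read on either strand.
Il6ra, chr3:89913147-89913446, minus strand: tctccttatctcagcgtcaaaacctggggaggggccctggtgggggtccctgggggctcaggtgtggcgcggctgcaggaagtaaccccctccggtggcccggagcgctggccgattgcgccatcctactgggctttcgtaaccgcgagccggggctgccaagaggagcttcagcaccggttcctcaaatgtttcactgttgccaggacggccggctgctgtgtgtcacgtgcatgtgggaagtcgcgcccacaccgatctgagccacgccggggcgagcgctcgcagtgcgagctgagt
Il21r, chr7:125603179-125603478, plus strand: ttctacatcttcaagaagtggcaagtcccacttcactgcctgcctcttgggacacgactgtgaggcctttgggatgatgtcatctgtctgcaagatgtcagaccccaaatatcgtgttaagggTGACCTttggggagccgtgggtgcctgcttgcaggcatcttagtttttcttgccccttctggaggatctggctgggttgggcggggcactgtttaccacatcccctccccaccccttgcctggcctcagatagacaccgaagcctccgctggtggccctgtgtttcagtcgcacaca
The window of Il21r holds 1 such match, on the minus strand, with its first base 127 bases before the start, and that of Il6ra holds none. Among 32851 promoter windows 16.3% hold the half-site. The STAT element TTCNNNGAA, which reads the same on both strands and is in 8.30% of windows, occurs among the receptor windows in that of Il7r, as TTCAGGGAA, 142 bases before the start. The form with 4 letters between TTC and GAA is in 6.95% of all windows and in none of the 9 windows of receptor genes, which cover 8 of the 10 genes. A match describes the letters of a window and shows no binding.

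Il6st, which encodes gp130, did not separate RA from Ro. It read 685 and 1002 in RA, against 666 and 1247 in Ro and 821 and 159 in Control. The RA and Ro arrays overlapped, and Control replicate 2 lay far below the other 5 arrays. The log2 difference was -0.14 for RA minus Ro, with a 95% interval of -1.90 to 1.62 that includes changes of more than 2-fold either way. In the narrower fit of the 4 arrays the interval was -0.96 to 0.70. For RA minus Control and Ro minus Control the differences were 1.19 and 1.33, with intervals of -0.57 to 2.95 and -0.43 to 3.09, and these rest on 1 array: without Control replicate 2 they were 0.0029 and 0.13. All 4 Il6st probe sets were lowest on Control replicate 2, at 12.8 to 159, so the low reading was not a matter of a single probe set.

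Among the chains of the common gamma family, Il2rb was lower in RA than in Ro by value. This gene encodes the beta chain that the IL2 and IL15 receptors share. Its signal was 358 and 661 in RA, against 848 and 914 in Ro and 530 and 1383 in Control. The RA arrays lay below the Ro arrays, while the Control arrays spanned both groups. The log2 difference of RA minus Ro was -0.85 (SE 0.51, 95% interval -2.07 to 0.37, limma adjusted p = 1.00) with all arrays and -0.84 (SE 0.32, limma adjusted p = 0.948) with the 4 arrays. It was -0.40 without RA replicate 1 and -1.28 without RA replicate 2. The other Il2rb probe set had 348 and 501 in RA, against 710 and 743 in Ro and 410 and 632 in Control, and a log2 difference of -0.80. For RA minus Control the main probe set gave -0.81, but -0.13 without Control replicate 2. The other probe set gave -0.28 for RA minus Control with all arrays.

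Il21r, the private chain for IL21, was the only one of the 8 tested receptor genes with both RA arrays above both Ro arrays. It read 404 and 352 in RA, against 193 and 285 in Ro and 421 and 959 in Control. The 3 groups did not overlap, with Control highest and Ro lowest. The log2 difference was 0.68 for RA minus Ro (SE 0.45, 95% interval -0.38 to 1.73), -0.75 for RA minus Control (interval -1.80 to 0.31) and -1.43 for Ro minus Control (interval -2.48 to -0.37), with limma adjusted p values of 1.00, 0.904 and 0.703. Without Control replicate 2 the RA minus Control difference was -0.17 and the Ro minus Control difference -0.85, and without Ro replicate 1 the RA minus Ro difference was 0.41. On the 4 arrays RA minus Ro was 0.69 (SE 0.27, limma adjusted p = 0.948).

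Il4ra, the chain that binds IL4 and also serves IL13 receptors, lies next to Il21r in the RefSeq gene table of GRCm38.p6. It read 541 and 631 in RA, against 429 and 629 in Ro and 551 and 1137 in Control, and the RA and Ro arrays overlapped. Its log2 difference was 0.17 for RA minus Ro (95% interval -0.82 to 1.16), with -0.05 when the deposited values were left unscaled, and -0.44 for RA minus Control, with 0.07 without Control replicate 2. Both genes were highest on Control replicate 2. A second Il4ra probe set did not share that, with 278 on Control replicate 2 and 327 on Control replicate 1. The third was dim, at 8.96 to 23.8.

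Il7r, the alpha chain of the IL7 receptor, on which naive and memory T cells rely for survival, showed no separation of any groups. It read 1990 and 2671 in RA, against 1541 and 2997 in Ro and 1845 and 2543 in Control. The log2 difference of RA minus Ro was 0.10 with a 95% interval of -0.87 to 1.07, and it turned to -0.12 in unscaled values. After scaling, replicate 2 was higher than replicate 1 in each group for this probe set. As deposited, Control had the opposite order, with 2173 on replicate 1 and 1767 on replicate 2. The other probe set, at 932 and 1262 in RA, 648 and 1284 in Ro, and 1059 and 870 in Control, had replicate 2 higher in RA and Ro and lower in Control.

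Il15ra encodes the chain that binds IL15 and presents it to neighbouring cells. It read 83.0 and 76.6 in RA, against 76.5 and 145 in Ro and 80.2 and 100.0 in Control, and 5 of the 6 arrays lay within 76.5 to 100.0. Ro replicate 2 alone stood higher. The log2 difference of RA minus Ro was -0.39 (95% interval -1.31 to 0.53), and 0.06 without Ro replicate 2. The second Il15ra probe set, at 43.9 and 58.4 in RA, against 47.0 and 54.3 in Ro, gave a difference of 0.0031. Il9r, the private chain for IL9, had signals of 0.877 and 0.464 in RA, 0.333 and 0.812 in Ro, and 0.794 and 8.29 in Control, all too dim to compare.

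Il10ra, the IL10-binding chain, was higher in Ro than in both other groups by value. It read 89.1 and 132 in RA, against 193 and 169 in Ro and 120 and 78.2 in Control. Both Ro arrays lay above the other 4, while RA and Control overlapped. The log2 difference was -0.72 for RA minus Ro (SE 0.36, 95% interval -1.58 to 0.14), 0.16 for RA minus Control (interval -0.70 to 1.02) and 0.88 for Ro minus Control (interval 0.02 to 1.74), with limma adjusted p values of 1.00, 0.942 and 0.703. On the 4 arrays RA minus Ro was -0.71 (SE 0.29, limma adjusted p = 0.948). Without RA replicate 1 the RA minus Ro difference was -0.43 with the remaining 5 arrays, and without Control replicate 2 the Ro minus Control difference was 0.56. A second probe set was dim and erratic, at 1.22 to 38.8, and the third lay at 0.458 to 1.15, below the filter.

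No receptor gene passed an adjusted p of 0.05 in any comparison by limma, with all arrays or with the 4. Over the whole array limma called 0 probe sets of 29531 in each of the 3 comparisons, a background of 0.0%, with 499 (1.69%), 699 (2.37%) and 1647 (5.58%) at an unadjusted p under 0.05 for RA minus Ro, RA minus Control and Ro minus Control. In the fit of the 4 arrays it called 10 of 27900, or 0.0358%, with 4.61% at an unadjusted p under 0.05. By that unadjusted measure the 4-array fit held 4 of the 8 receptor genes (Il6ra, Il2rb, Il21r and Il10ra), where 5.32% of all tested genes had such a p. With all arrays the count for RA minus Ro was 1 of 8, against 1.93% of tested genes. For RA minus Control it was also 1 of 8, again Il6ra, against 2.29%. For Ro minus Control it was 2 of 8, Il21r and Il10ra, against 5.35%. The receptor genes were chosen with earlier results of these data known. Counts set beside shares of all genes, here and below, are therefore no test of the set.

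The receptor genes with RA wholly below Ro were 3 of 8 (Il6ra, Il2rb and Il10ra), against 20.2% of all tested genes, and the 1 wholly above was Il21r, against 14.8%. In unscaled values 4 lay wholly below, Il15ra being the fourth. Against Control, RA lay wholly below for 2 of 8 (Il6ra and Il21r) and wholly above for 0, where the shares of tested genes were 10.6% and 18.8%, and in unscaled values Il4ra also lay wholly below. No receptor gene had RA above both other groups, as 3.61% of tested genes did. Ro lay wholly above Control for 2 of 8 (Il6ra and Il10ra) and wholly below for Il21r, against 22.6% and 12.4%. The median log2 difference over the 8 genes was -0.26 for RA minus Ro, beside -0.02 over all tested genes, and -0.30 for RA minus Control, beside 0.0012. For Ro minus Control it was 0.13, beside 0.0066. The RA comparisons share the RA arrays and the Control comparisons the Control arrays, so these counts are not independent of each other.

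**Figure D2:**
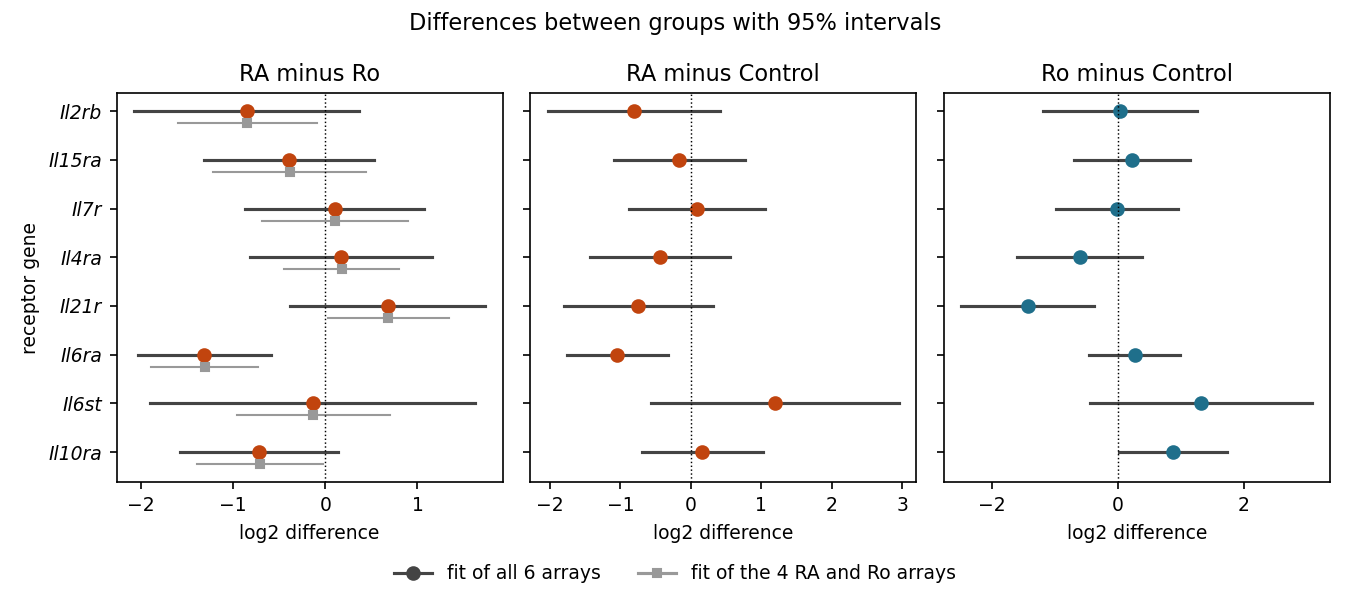
Log2 differences between groups (points) with 95% intervals from limma (lines) for the 8 receptor genes tested, for RA minus Ro, RA minus Control and Ro minus Control. Grey squares in the left panel give the 4-array fit, where the Il6st interval narrows to -0.96 to 0.70, and Il6ra lies below 0 with its interval in both fits.

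The spread between replicates differed by gene and group. The higher replicate was less than 2-fold above the lower for all 8 genes in RA and in Ro, where 10.5% and 16.8% of tested genes were at least 2-fold apart. In Control 4 of 8 were at least 2-fold apart, against 35.3% of tested genes, so Control replicates differed more over the array as a whole. These were Il6st at 5.18-fold, Il2rb at 2.61-fold, Il21r at 2.28-fold and Il4ra at 2.06-fold. These counts and ratios are of scaled signals and depend on the scaling. As deposited, Control replicates 1 and 2 read 967 and 110 for Il6st. They lay closer together than when scaled for Il2rb (625 and 961), Il21r (496 and 666) and Il4ra (649 and 790). Il6st was lower and the other 3 were higher on Control replicate 2 than on Control replicate 1. Il6ra had the replicates 1.34-fold apart in RA, 1.16-fold in Ro and 1.22-fold in Control. Il7r and Il15ra were further apart in Ro than in Control, for Il7r at 1.94-fold in Ro and 1.38-fold in Control.

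**Figure D3:**
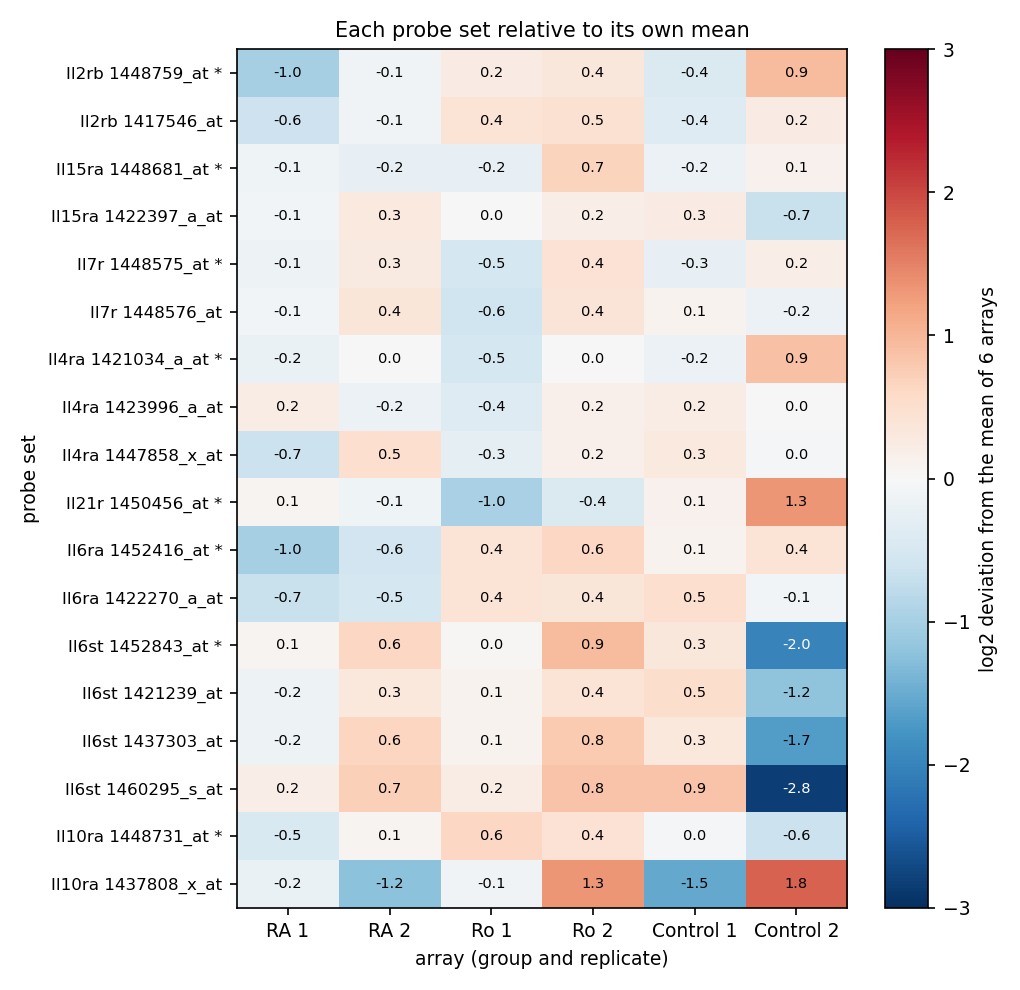
Deviation of each of the 18 tested receptor probe sets from its own mean over the 6 arrays, on the log2 scale (colour and printed value), with 1 row for each probe set and 1 column for each array, and a star at the probe set that represents its gene. Both Il6ra rows are low on the RA arrays, all 4 Il6st rows are low on Control replicate 2, and the rows of Il4ra, Il15ra and Il10ra differ within a gene.

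By the log2 values over the 6 arrays, the genes most like Il6ra were Slco2b1 (Pearson r = 0.991), Cd8b1 (0.979) and Ephx2 (0.975). Slco2b1, an organic anion transporter, was dim, at 7.54 and 13.4 in RA, 37.7 and 50.0 in Ro, and 24.1 and 44.0 in Control. Cd8b1, the beta chain of the CD8 coreceptor, stood at 59.0 and 84.8 in RA, 114 and 138 in Ro, and 105 and 122 in Control. Ephx2, the soluble epoxide hydrolase, was dim at 7.01 to 20.2. These genes were picked as the highest of 12996 tested genes over only 6 arrays, so high r values follow from the picking. The values describe 6 arrays that share the same scaling and the departure of Control replicate 2.

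The genes around the receptors also gave no call between RA and Ro, in either fit. Of 28 other receptor chains 17 were tested, 7 above and 10 below 0 in RA minus Ro, with a median of -0.03. RA lay wholly below Ro for 7 of these 17, 4 of 13 ligands, 5 of 10 JAK kinases and STAT factors, 5 of 20 feedback inhibitors and adaptors and 7 of 19 survival and growth genes, beside 20.2% of all tested genes. Il12rb2, the signalling chain of the IL12 receptor, read 20.6 and 44.6 in RA, against 108 and 115 in Ro, and differed by -1.77 on the log2 scale (SE 0.60). Il18r1, a chain of the IL18 receptor, read 275 and 219 in RA, against 1091 and 455 in Ro, at -1.51 (SE 1.03). Of 18 ligand genes 13 were tested, 4 above and 9 below 0, with a median of -0.12. Ebi3, the subunit shared by IL27 and IL35, was higher in RA by value at 250.2 and 170 against 121 and 67.3 in Ro, and Il13 was dim at 3.53 and 2.94 in RA, against 11.4 and 17.2 in Ro.

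Of the JAK kinases and STAT factors 10 of 11 were tested, 2 above and 8 below 0, with a median of -0.29. Stat2, which acts downstream of type I interferon, read 95.5 and 216 in RA, against 492 and 407 in Ro, at -1.62 (SE 0.56). Stat5a, which carries IL2 and IL7 signals, read 226 and 418 in RA, against 489 and 572 in Ro, at -0.78 (SE 0.52). The feedback inhibitors and adaptors, 20 of 21 tested, had 5 above and 15 below 0 and a median of -0.11. Socs1, a feedback inhibitor of JAK signalling, stood at 197 and 193 in RA, against 323 and 397 in Ro, and Socs3, which restrains gp130 signalling, at 256 and 413 in RA, against 268 and 686 in Ro. The 19 cytokine-responsive survival and growth genes, all tested, had 8 above and 11 below 0 and a median of -0.11. Gfi1, a repressor, stood at 483 and 523 in RA, against 291 and 290 in Ro, while Nfil3 overlapped between the groups, at 162 and 124 in RA, against 181 and 33.4 in Ro.

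**Figure D4:**
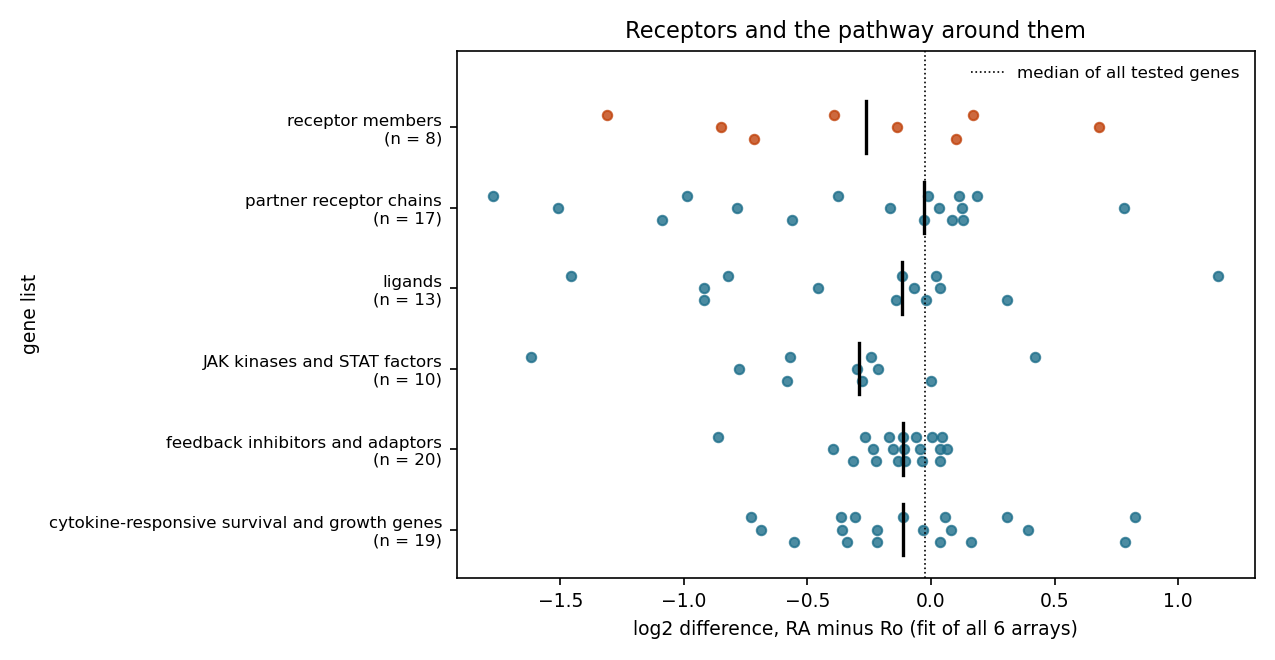
Log2 difference of RA minus Ro in the fit of all 6 arrays for each tested gene of 6 lists (points, spread vertically for legibility), with the median of each list as a black bar and the median of all tested genes, -0.02, as a dotted line. Receptor members (n = 8) have a median of -0.26 and JAK kinases and STAT factors (n = 10) one of -0.29.

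Markers of other cells that can carry these receptors were measured beside them. All 6 mast cell and basophil markers lay wholly below Ro in RA, beside 20.2% of all tested genes, with a summed signal of 1261 to 1596 in RA, 3054 to 5090 in Ro and 221 to 3098 in Control. Cma1, the mast cell chymase, passed in the fit of the 4 arrays, with 36.6 and 42.9 in RA, against 454 and 435 in Ro (log2 difference -3.39, SE 0.24, limma adjusted p = 0.0267). Both CD8 markers lay wholly below Ro in RA as well, beside the same 20.2%, with sums of 63.6 to 91.1 in RA, 129 to 157 in Ro and 115 to 463 in Control, of which Cd8a gave 4.64 and 6.32 in RA, 14.3 and 19.5 in Ro, and 9.68 and 340.4 in Control. Of 5 NK cell markers 1 was tested, Klrd1, at 241 and 315 in RA, 819 and 475 in Ro, and 197 and 2965 in Control, and Ncr1 lay below the filter.

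Myeloid markers, 7 of 7 tested, summed to 549 to 648 in RA, 380 to 1066 in Ro and 191 to 1618 in Control, with Adgre1 at 51.4 and 57.1 in RA, against 113 and 57.2 in Ro, and Cd14 at 9.74 and 24.8 in RA, against 37.9 and 12.1 in Ro. B cell markers, 5 of 6 tested, summed to 93.2 to 111 in RA, 64.0 to 109 in Ro and 67.7 to 161 in Control, with Cd79b at 56.7 and 38.5 in RA, against 20.9 and 26.0 in Ro, and Ms4a1 at 1.32 and 17.7 in RA, against 12.4 and 31.8 in Ro. The CD4 T cell markers, 9 of 10 tested, summed to 29713 to 34709 in RA, 30310 to 31248 in Ro and 28660 to 38899 in Control. Among them Cd3g stood at 5165 and 4137 in RA, against 3850 and 3681 in Ro, and Cd2 at 3998 and 3614 in RA, against 4612 and 4199 in Ro. The mast cell, CD8 and Klrd1 signals were thus lower in RA than in Ro by value, as Il6ra, Il2rb and Il10ra were. From Control replicate 1 to replicate 2 the mast cell sum went from 3098 to 221, while the CD8 sum and Klrd1 rose. The rise of the CD8 sum was mostly that of Cd8a, from 9.68 to 340.4. Cd8b1 went from 105 to 122 scaled and from 124 to 85.0 as deposited. Between the same arrays Il6ra went from 692 to 845, Il2rb from 530 to 1383 and Il10ra from 120 to 78.2. These are scaled signals of the main probe sets. As deposited Il6ra fell, from 815 to 587, while Il2rb rose, from 625 to 961. The second Il6ra probe set fell when scaled, from 250 to 166. The second Il2rb probe set went from 410 to 632 scaled and from 483 to 439 as deposited. The part of these marker signals in the receptor differences was not tested.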

How the data were processed

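Signal was measured on 6 oligonucleotide arrays of cultured mouse CD4+ T cells, grouped by their titles (RO and Ro taken as 1 group). The deposited values are probe set intensities on a linear scale that the authors computed by MAS5, per the submitters' processing notes; these name no version or scaling target, and array medians ran from 16.2 to 23.7. No detection calls were used.

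Gene names are those of the platform annotation: 34945 probe sets have 1 symbol, 932 have several and 9160 have none; 64 control probe sets were left out. Checking through the Entrez ID changed 0 symbols. The files name no genome build, and promoter windows are RefSeq's on GRCm38.p6. Probe sets above the 40th percentile of their array on at least 2 arrays were tested. Each array was scaled to a common median of tested probe sets, and differences were tested in limma 3.58.1 (R 4.3.3, lmFit and eBayes with an intensity trend, two-sided) on log2(signal + 2.99), with the 20th percentile of all values as the added constant, which shrinks differences of dim genes. Calls are at 0.05 after Benjamini-Hochberg adjustment over every tested probe set. The 6 arrays entered 1 fit (3 residual degrees of freedom), and the 4 RA and Ro arrays a second (2). The fit was tested on simulated data whose planted changes were larger than any receptor difference here and whose spread was capped at its median. That test does not show that differences of the size seen here would be found.

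Of the tested probe sets of a gene, the brightest by mean log2 stands for it, passing over those ending in _x_at or _s_at where it has another. All receptor genes are named. In each other list up to 4 genes past the threshold in the fit of the 4 arrays, or otherwise the 2 with the largest difference, are named, and the 3 genes most correlated with the receptor gene of largest RA minus Ro difference. The members and lists were chosen with earlier results of these data known. Alternatives were other scalings, pseudocounts and filters, no trend, a replicate block, mean probe sets, fits of 2 groups, and leaving out each array. No 2 arrays held the same data (at most 0.00444% of values were equal).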

Additional observations from a re-analysis of the deposited data

How the results depend on the processing

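Of 512 values of receptor genes under an alternative, 472 kept their direction and their side of the threshold, 31 changed sign and 9 passed the threshold. Il6ra and Il21r kept their sign in all 3 comparisons, as did Il2rb and Il10ra for RA minus Ro; the log2 difference of Il6ra for RA minus Ro ran from -1.53 to -1.15 in fits of 6 arrays (limma adjusted p 0.999 to 1.00) and from -1.51 to -1.09 with 1 array left out (limma adjusted p 0.458 to 1.00).

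Unscaled values turned RA minus Ro to -0.12 for Il7r and -0.052 for Il4ra, in both fits, and Ro minus Control to 0.32 for Il7r. Quantile normalization turned Ro minus Control to 0.075 for Il7r and -0.0036 for Il2rb. Means of probe sets turned RA minus Control to 0.072 for Il15ra and -0.34 for Il10ra. The second probe set averaged in had a difference of 0.31 for Il15ra and -0.84 for Il10ra, beside -0.16 and 0.16 for the main ones. The mean is taken over the log2 values of the tested probe sets of a gene, so its difference is the average of theirs. Leaving out 1 array, values with a change of sign ran, for RA minus Ro, from -0.37 to 0.59 for Il7r, -0.095 to 0.45 for Il4ra, -0.83 to 0.062 for Il15ra and -0.58 to 0.32 for Il6st. On the 4 arrays they ran from -0.35 to 0.61, -0.081 to 0.47, -0.82 to 0.082 and -0.56 to 0.34 for these genes. For RA minus Control they ran from -0.14 to 0.31 for Il7r, -0.96 to 0.074 for Il4ra and -0.15 to 0.46 for Il10ra. For Ro minus Control they ran from -0.66 to 0.71 for Il2rb, -0.50 to 0.45 for Il7r and -0.23 to 0.66 for Il15ra.

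The 0 calls for RA minus Ro became 10 with the 2 groups alone, and 0 to 10 leaving out 1 array. For RA minus Control and Ro minus Control the range was 0 to 3478 and 0 to 4295, the highest without Control replicate 1, when limma called Il2rb, Il21r, Il6ra and Il6st for RA minus Control (adjusted p = 0.0481, 0.0445, 0.0454 and 0.0180) and Il21r and Il6st for Ro minus Control (adjusted p = 0.0115 and 0.0133). The lone array is then assumed to vary like the other groups. The 10 calls of the 4-array fit became 3 with no filter, 4 with a filter at the 60th percentile, 0 without an intensity trend, 65 with a replicate block, and 0 to 848 leaving out 1 array.

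The labels do not say that replicate numbers pair arrays, and the deviations of same-numbered arrays correlated at 0.25 for RA and Ro, 0.0042 for RA and Control and -0.03 for Ro and Control. With the replicate block Il6ra passed in the 4-array fit (-1.30, limma adjusted p = 0.0422), a value that holds only if the numbers pair the arrays, and no other receptor gene crossed the threshold. Dim signals limit Il9r, the second Il10ra probe set and the third Il4ra one.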

Other observations

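Genes of the ligands and of early targets of these receptors also set Control replicate 2 apart, and those named here were chosen after their values were seen. Il2, the gene of the main T cell growth factor, stood at 3294 on Control replicate 2 and at 29.2 to 51.2 on the other 5 arrays. Il21 stood at 2255 there and at 0.453 to 10.4 on the others, and Il9 at 362 there and at 6.19 to 11.1 on the others. Il2ra, the chain that gives the IL2 receptor its high affinity, read 4407 on that array and 417 to 778 elsewhere. The feedback inhibitors Cish, Socs2 and Socs3, which cytokine signals induce, read 4586, 5115 and 2248 on that array, against 349 to 629, 619 to 1354 and 256 to 686. On the same array the RNA of Il6st was low, as described above. The main Il10ra probe set was also lowest there, at 78.2 against 89.1 to 193 on the others, while its dim second one was highest, at 38.8. These are values of 1 array and have no replicate check.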
